A study of Pelodiscus sinensis with 8 samples.

Results

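The tissue between the digits of the forelimb was followed from digit I to digit V in embryos of the Chinese soft-shell turtle (Pelodiscus sinensis), an aquatic turtle with webbed feet. The 4 libraries were chosen by their labels as the forelimb ones among 8 libraries in all. Web 1 joins digits I and II, web 2 joins digits II and III, web 3 joins digits III and IV, and web 4 joins digits IV and V. The other 4 libraries are the same webs of the hindlimb and serve as a comparison. All embryos are wild type and were taken at Tokita-Kuratani stage 19, with no treatment labelled, and the forelimb pools carry the genotype tag ICD and the hindlimb pools the tag anti-ICD, neither spelled out. Every library is RNA from 1 pool of 40 pieces of tissue, left and right, of 20 individuals, and the same 20 individuals gave all 8 pools. No web has a second pool, so a slope along the webs is judged by how far its 4 values stray from a straight line, and p-values say nothing of differences between animals. The question asked here is which genes change along the forelimb from digit I to digit V, and at which of the 3 steps between neighbouring webs.

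In the limb bud of mouse and chick, the signal SHH is made on the posterior side, where the last digit forms, and the genes at the 5′ end of the HOXD cluster are switched on in an order that follows this axis. Digit I lies on the anterior side and digit V on the posterior side. The tissue between digits goes on carrying HOXD products and BMP, FGF and retinoic acid signals after the digits have formed, and in amniotes with free digits much of it is removed by cell death, while webbed feet keep it.

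The 4 forelimb libraries held 54831395 to 65849337 counts, and log2 CPM (the usual depth-scaled read count, with libraries scaled within a limb) correlated between them at 0.961 to 0.977. The counts were high enough for a test in the forelimb for 14544 of 19328 genes, and 3974 of these (27.3%) have no symbol. The label was checked against limb markers. TBX5, the forelimb factor, stood at 31.8, 32.7, 35.3 and 29.2 CPM in webs 1 to 4, against at most 0.904 CPM in any hindlimb web. The mesenchyme factors PRRX1, at 108 to 219 CPM, and MSX2, at 551 to 931 CPM, were present in every forelimb web. The hindlimb factor TBX4 stood at 0.317, 3.29, 1.35 and 0.532 CPM, against 129 to 159 CPM in the hindlimb. PITX1, also known as a hindlimb factor, separated the limbs less cleanly. Forelimb values were 14.5, 30.2, 97 and 44.9 CPM, each below its hindlimb counterpart of 53.8, 106, 148 and 107 CPM. Forelimb web 3 nevertheless lay above hindlimb web 1. Whether reads were counted by strand was not stated, so the reads of genes that overlap, on either strand, cannot be told apart.

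Expression changed along the whole row of webs, and more genes fell than rose toward digit V. A slope on web number passed the test for 309 of 14544 genes, 107 rising (0.736% of those tested) and 202 falling (1.39%), by edgeR's quasi-likelihood test with a Benjamini-Hochberg adjusted p under 0.05. Slopes are in log2 units per web and are positive where a gene is higher toward web 4. Counts of list members that rose or fell, given below, are to be read beside the shares over all genes, 0.736% and 1.39%. The median slope was 0.50 among the rising and -0.58 among the falling genes, and 261 of the 309 differed at least 2-fold between webs 1 and 4. The 3 steps had the same sign in 100 of the 107 rising and 169 of the 202 falling genes, and in 2112 of all 14544 genes (14.5%). Genes chosen for a straight slope tend to have such steps, so these counts are not a separate result. Over all genes tested the median slope was 0.00. At an unadjusted p under 0.05 the counts were 729 and 1212. Without web 4 the test called 232 rising and 473 falling genes, and 245 of the 309 were still called. Without web 1 as many as 310 genes were called, but only 137 of the 309 were among them. A fit without 1 web has only 1 residual degree of freedom. A pass there is thus no stronger evidence than the fit over all 4 webs.

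The steps were not equal. Among the rising genes the median step was 0.44 from web 1 to 2, 0.58 from web 2 to 3 and 0.38 from web 3 to 4 on the log2 scale. Among the falling genes it was -0.57, -0.79 and -0.24. The step between webs 2 and 3 was the largest for 55 of the 107 rising genes (51.4%) and 133 of the 202 falling genes (65.8%). These shares describe genes already chosen for a straight slope. Among all 1337 genes at least 2-fold lower in web 4 than in web 1, the step from web 2 to 3 was the largest for 557, and among the 554 at least 2-fold higher it was so for 135, behind the 267 whose largest step was that from web 1 to 2.

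**Figure D1:**
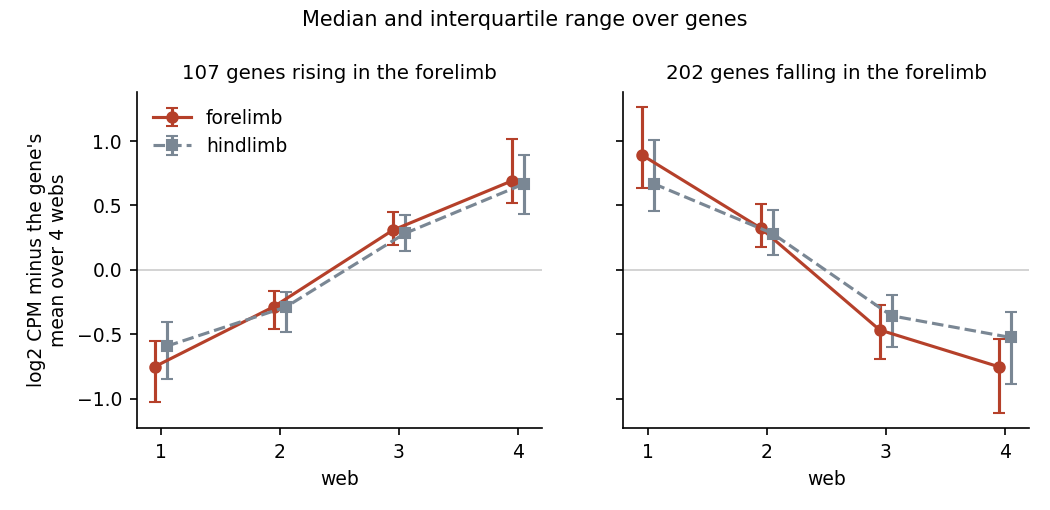
Log2 CPM minus each gene's mean over the 4 webs of a limb, plotted by web for the 107 genes that rose (left) and the 202 that fell (right) in the forelimb. Points are medians over genes and bars are interquartile ranges, with the forelimb in red and the hindlimb in grey. The forelimb medians run from -0.75 to 0.69 in the rising genes and from 0.89 to -0.75 in the falling genes, and the hindlimb was not used to choose the genes.

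Each step rests on 1 library on either side, so it is given by size and has no test. From web 1 to web 2, 429 genes (2.95%) were more than 2-fold higher and 597 (4.1%) more than 2-fold lower. From web 2 to web 3, 327 (2.25%) were higher and 951 (6.54%) lower. From web 3 to web 4, 701 (4.82%) were higher and 602 (4.14%) lower. The middle step was the most one-sided, toward lower values in web 3, and the last step was the only one with more genes higher than lower. On log2(TPM + 1) the last step turned the other way, with 120 higher and 131 lower. Many genes in these counts have low values. Among the 10867 genes that reached at least 5 CPM in some forelimb web, a limit set after seeing the data, the counts were 51 higher and 102 lower, then 35 and 200, then 109 and 84. In distances over all genes (root mean square of the log2 difference), webs 1 and 2 lay closest at 0.610, webs 2 and 3 were 0.702 apart and webs 3 and 4 0.718 apart, and webs 1 and 3 were as far apart, at 0.864, as webs 1 and 4, at 0.854. On the leading principal component, with 50.7% of the variance, webs 1 to 4 lay at -53.9, -22.4, 37.1 and 39.2, so webs 3 and 4 stood almost together. On the next, with 30.9%, they lay at 9.16, -12.5, -40.8 and 44.1, and it was web 3 and web 4 that stood farthest apart.

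**Figure D2:**
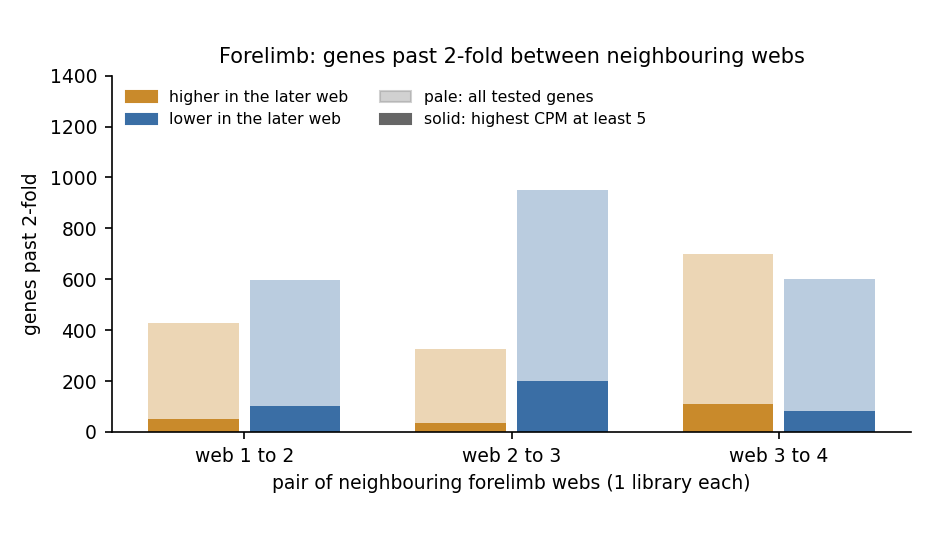
Number of genes more than 2-fold higher (orange) or lower (blue) in the later web of each neighbouring pair of forelimb webs, 1 library per web. Pale bars count all 14544 tested genes and solid bars the genes that reached at least 5 CPM; the tallest bar is the 951 genes lower in web 3 than in web 2, with 200 of them in the solid part.

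The 5′ HOXD genes were lowest in web 1 and formed a graded series, steepest for HOXD11 and nearly flat for HOXD13. HOXD10 (ENSPSIG00000003088), a homeobox factor of the limb skeleton, stood at 0.985, 2.39, 7.08 and 8.23 CPM in webs 1 to 4. It rose with a slope of 1.08 ± 0.174 (SE; edgeR, adjusted p = 0.030). HOXD11 (ENSPSIG00000003098) stood at 0.200, 6.14, 24.7 and 29.9 CPM, with web 1 close to 0 and webs 3 and 4 similar. Its slope of 1.98 ± 0.431 was the larger but missed the threshold (adjusted p = 0.075). Its log2 step was 4.72 from web 1 to 2, 2.0 from web 2 to 3 and 0.28 from web 3 to 4. HOXD12 (ENSPSIG00000003112) stood at 119, 346, 508 and 504 CPM, a slope of 0.67 ± 0.153 (adjusted p = 0.087), with a step of 1.54 from web 1 to 2 and of -0.01 from web 3 to 4. HOXD13 (ENSPSIG00000003141), the last gene of the cluster and the 5′ HOXD gene found at the thumb in mouse, stood at 387, 495, 531 and 501 CPM, a slope of 0.12 ± 0.0579 (adjusted p = 0.43). In TPM, which takes gene length into account, HOXD13 was the highest of the 4 in web 1, with 172 against 141 for HOXD12, 1.57 for HOXD10 and 0.339 for HOXD11. In web 2 HOXD12 had passed it, with 419 TPM against 226, and it stayed above it in web 3 (607 against 238) and web 4 (559 against 209).

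The HOXA genes of the same class lay between the steep and the flat HOXD genes. HOXA10 stood at 7.88, 11.1, 12.6 and 16.2 CPM and HOXA11 at 8.35, 12.4, 15.4 and 16.4 CPM, with slopes of 0.33 and 0.32 that missed the threshold (adjusted p = 0.10 and 0.13). HOXA11 passed with DESeq2 (adjusted p = 0.027) and in the fit over all 8 libraries (0.039), and its slope was 0.20 without web 1 (adjusted p = 0.49). Each was lowest in web 1 and highest in web 4. EVX2, the neighbour of HOXD13, stood at 3.24 to 4.84 CPM, and EVX1, the neighbour of the HOXA cluster, was lower toward digit V with 10.9, 15.1, 9.56 and 6.25 CPM. Of the 8 tested genes of the 5′ HOXA, HOXD and EVX list, 1 rose (0.736% of all genes did), none fell and 7 did not pass. Their median slope was 0.33 against 0.00 over all genes. From web 1 to 2, 8 of 8 were higher, beside 7268 of all 14544 genes. Of 18 tested 3′ HOX and MEIS genes none passed, and the most abundant of them, MEIS1, stood at 145, 137, 189 and 231 CPM. Without web 1 the HOXD10 slope was 0.88 with an adjusted p of 0.11. HOXD11 passed with DESeq2 (adjusted p = 0.0062) and when any one web was left out (0.0023 to 0.048). Its slope was 1.12 without web 1 and 3.04 without web 4. HOXD12 passed without web 2, web 3 or web 4 (0.0025 to 0.032), with a slope of 1.04 without web 4. The HOXD12 slope was 0.27 without web 1 (adjusted p = 0.18). These fits to fewer webs do not outweigh the fit over all 4 webs, which neither HOXD11 nor HOXD12 passed.

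**Figure D3:**
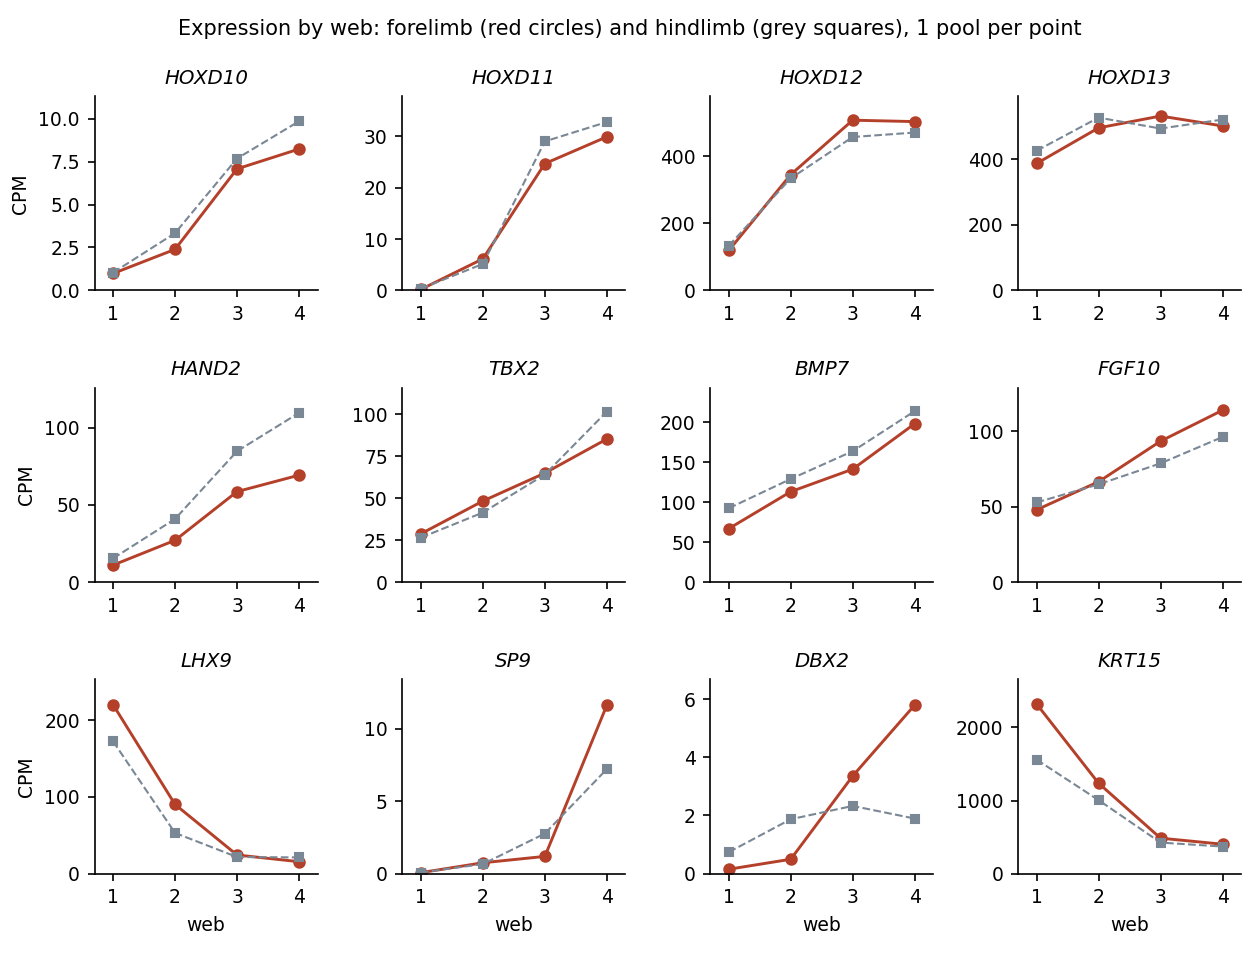
CPM by web of 12 genes, scaled within each limb, with the forelimb as red circles and the hindlimb as grey squares, 1 pool per point and axes starting at 0. HOXD10, HOXD11 and HOXD12 climb from web 1 and level off after web 3 while HOXD13 stays between 387 and 531 CPM in the forelimb; LHX9 and KRT15 drop from web 1, and SP9 and DBX2 are near 0 in web 1.

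HAND2 and TBX2 of the posterior list rose and LHX9 of the anterior list fell, while the other tested members of both did not pass. HAND2 (ENSPSIG00000012804), which switches on SHH in the posterior limb bud of mouse, stood at 10.9, 27.0, 58.6 and 69.2 CPM. It rose at each step and was 6.31-fold higher in web 4 than in web 1 (slope 0.91 ± 0.116, adjusted p = 0.016). TBX2 (ENSPSIG00000017536), a repressor found at limb margins and between digits, stood at 28.7, 48.2, 64.9 and 85.1 CPM and rose with a slope of 0.51 ± 0.0593 (adjusted p = 0.012). SALL1 stood at 13.3, 13.6, 6.98 and 6.25 CPM, high in webs 1 and 2 and low in webs 3 and 4, and did not pass (slope -0.42, adjusted p = 0.12; 0.017 with DESeq2). Of the 9 tested posterior genes 2 rose (0.736% of all genes did), none fell and 7 did not pass. SHH itself had 0 counts in all 4 forelimb libraries and was not tested. Of 11 tested hedgehog pathway genes none passed, with PTCH1, a receptor and target of the pathway, at 12.4, 9.95, 7.68 and 10.9 CPM and GLI3, its transcription factor, at 216, 312, 274 and 177 CPM.

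LHX9 (ENSPSIG00000007754), a LIM homeobox factor of the anterior and distal limb bud, stood at 219.9, 90.0, 24.2 and 15.5 CPM. It fell by 1.33 ± 0.0974 per web (adjusted p = 0.0068), the lowest p of any falling gene with a symbol, and was 14.1-fold higher in web 1 than in web 4. The other 11 of the 12 tested anterior genes did not pass. ALX4, an anterior homeobox factor, stood at 2.82, 1.57, 1.39 and 0.477 CPM (slope -0.76 ± 0.223, adjusted p = 0.18). PAX9 was higher toward digit V, with 5.99, 7.92, 7.5 and 9.86 CPM, and did not pass (adjusted p = 0.41). PITX1, known as a hindlimb factor, stood at 14.5, 30.2, 97 and 44.9 CPM, highest in web 3, and its straight slope of 0.75 ± 0.283 did not pass (adjusted p = 0.30). It passed without web 3 (slope 0.50, adjusted p = 0.024) and without web 4 (slope 1.38, adjusted p = 0.00022), and its slope was 0.28 without web 1 (adjusted p = 0.80).

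Among BMP signals, which drive cell death between digits in mouse and chick, the members ran in different directions. BMP7 (ENSPSIG00000012240) stood at 66.7, 113, 141 and 198 CPM and rose at each step, with a slope of 0.50 ± 0.0545 (adjusted p = 0.011). BMP5 was lower toward digit V, at 178, 151, 84.6 and 103 CPM (slope -0.31 ± 0.0838, adjusted p = 0.14). BMP2 stood at 33.6, 44.4, 34.9 and 26.8 CPM and BMP4 at 43.8, 42.9, 40.6 and 30.3 CPM, both lowest in web 4 and neither past the test (adjusted p = 0.60 and 0.31). Of 14 BMP ligands and receptors 1 rose (0.736% of all genes did), none fell and 13 did not pass. BMP5 passed with DESeq2 (adjusted p = 0.013), in the fit over all 8 libraries (0.038), without web 3 (0.046) and without web 4, where its slope was -0.53 (adjusted p = 0.012). The BMP-responsive homeobox factors MSX1 and MSX2 stood at 478, 548, 296 and 253 CPM and at 807, 931, 738 and 551 CPM, lowest in web 4 (slopes -0.37 and -0.20, adjusted p = 0.10 and 0.28). Without web 1 both passed, with slopes of -0.56 and -0.38 (adjusted p = 0.013 and 0.022), and MSX1 also passed without web 2 (adjusted p = 0.046), with DESeq2 (0.00078) and in the fit over all 8 libraries (0.036). Without web 4 the MSX2 slope was -0.06 (adjusted p = 0.74). Of 10 BMP target genes 2, DLX5 and DLX6, fell (1.39% of all genes did) and the other 8 did not pass. All 10 were lower in web 3 than in web 2, beside 7393 of all 14544 genes. None of 11 secreted antagonists passed. GREM1 was highest in web 3, at 25.7, 33.4, 42.2 and 32.5 CPM, and among the fits without 1 web passed only without web 4 (slope 0.36, adjusted p = 0.042).

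FGF10 (ENSPSIG00000004248), a mesenchymal signal of limb outgrowth, stood at 48.0, 66.6, 93.5 and 114 CPM. FGF7, its close relative, stood at 35.1, 46.2, 67.3 and 71.9 CPM. Both rose at each step, with slopes of 0.42 ± 0.0492 and 0.37 ± 0.0605 (adjusted p = 0.012 and 0.032). The receptor FGFR3 fell, from 78.4 through 52.5 and 36.6 to 34.7 CPM (slope -0.40 ± 0.0641, adjusted p = 0.030), while FGFR1 (93.9 to 119 CPM) and FGFR2 (199 to 215 CPM) stayed in a narrow range. Of the 9 tested FGF ligands and receptors 2 rose, 1 fell and 6 did not pass, beside 0.736% of all genes rising and 1.39% falling. None of 10 FGF target genes passed. From web 2 to 3, 9 of the 10 were higher, beside 7138 of all 14544 genes. From web 3 to 4, 6 of the 10 were lower, beside 7070 of all genes. FGF8, a signal of the apical ridge, had 26 counts over the forelimb libraries and was not tested. Without web 1 the adjusted p was 0.10 for FGF7 and 0.13 for FGFR3, and without web 2 it was 0.068 for FGF7. With limma on log2(TPM + 1) it was 0.097 for FGF7 and 0.067 for FGFR3.

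Wnt ligands and modulators were graded both ways. WNT11, a ligand of the non-canonical branch, fell steadily, at 61.1, 46.2, 31.1 and 19.4 CPM (slope -0.55 ± 0.0577, adjusted p = 0.010). WNT5A, a second such ligand, did not pass, at 577, 729, 896 and 815 CPM (adjusted p = 0.25). Of 14 Wnt ligands and receptors 1 fell, none rose and 13 did not pass. Of 16 modulators 2 rose, 2 fell and 12 did not pass. Over all genes 0.736% rose and 1.39% fell. LGR5, a receptor for R-spondins, rose from 56.2 through 79.9 and 117 to 130.4 CPM (slope 0.42 ± 0.0566, adjusted p = 0.018), and WIF1, a secreted inhibitor, rose from 118 to 223 CPM (slope 0.30 ± 0.0531, adjusted p = 0.038). SFRP2, another secreted modulator, stood at 116, 108, 64.8 and 25.8 CPM and fell mostly at the last step (slope -0.72 ± 0.123, adjusted p = 0.036). DKK3 stood at 85.7, 87.4, 53.2 and 40.5 CPM and fell as well (slope -0.40 ± 0.0739, adjusted p = 0.045), and was not followed singly in the alternative fits. Web 4 carried much of 2 of these slopes: without it the slope was 0.19 for WIF1 (adjusted p = 0.13) and -0.42 for SFRP2 (adjusted p = 0.041). Without web 2 the adjusted p of WIF1 was 0.079. With limma on log2(TPM + 1) the calls of LGR5 (adjusted p = 0.075), WIF1 (0.063) and SFRP2 (0.060) ended.

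Of the enzymes that break down retinoic acid, a signal that promotes the removal of interdigital tissue in mouse, CYP26A1 rose and CYP26B1 was lower toward digit V. CYP26A1 stood at 10.5, 13, 23.1 and 31.5 CPM (slope 0.56 ± 0.0710, adjusted p = 0.016). CYP26B1 stood at 97.3, 98.6, 62.2 and 28.7 CPM, level over webs 1 and 2 and low in web 4 (slope -0.59 ± 0.115, adjusted p = 0.052). It passed without web 1 (slope -0.89), web 2 or web 3 (adjusted p 0.0017 to 0.037), and also with RLE scaling (0.046), no filter (0.048), DESeq2 (2.1e-06) and all 8 libraries in the fit (0.012). Without web 4 its slope was -0.32 (adjusted p = 0.12). The synthesis enzyme ALDH1A2 stood at 10.4, 6.80, 6.29 and 9.75 CPM, lowest in the middle webs, and the receptor RARB at 62.2, 84.0, 75.9 and 84.4 CPM, and neither passed. Of 15 genes of the retinoic acid list 1 rose (0.736% of all genes did), none fell and 14 did not pass. In the TGF-beta list 1 of 12 fell (1.39% of all genes did). TGFB3, one of its ligands, stood at 36.9, 32.4, 12.8 and 11.9 CPM, with nearly the whole difference at the middle step (slope -0.62 ± 0.107, adjusted p = 0.037; 0.064 with limma on log2(TPM + 1)).

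Guidance molecules, which steer axons and vessels, held both rises and falls. SEMA3D, a secreted semaphorin, stood at 40.0, 48.5, 87.9 and 132 CPM and rose by 0.60 ± 0.0602 per web (adjusted p = 0.0099). SLIT2, the ligand of ROBO receptors, was level over webs 1 and 2 and higher after them, at 52.7, 53.6, 106 and 138 CPM (slope 0.51 ± 0.0771, adjusted p = 0.024). The receptor ROBO2 fell over the same webs, at 105, 83.4, 60.9 and 41.4 CPM (slope -0.45 ± 0.0504, adjusted p = 0.012; 0.061 with limma on log2(TPM + 1)). The netrin receptor UNC5B fell from 459 through 352 and 232 to 216 CPM (slope -0.39 ± 0.0542, adjusted p = 0.020). The other 20 of 24 tested members did not pass. Over all genes 0.736% rose and 1.39% fell.

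The steepest genes with a symbol, a mean of at least 2 CPM and the same sign at all 3 steps were led by SP9 (ENSPSIG00000017528), a transcription factor of the apical ridge. SP9 stood at 0.0668, 0.747, 1.19 and 11.6 CPM, near 0 in web 1 and far highest in web 4 (slope 2.18 ± 0.253, adjusted p = 0.012). Without web 4 its slope was 1.87 with an adjusted p of 0.20. DBX2 (ENSPSIG00000009557), a homeobox gene known from the neural tube, stood at 0.150, 0.493, 3.36 and 5.79 CPM (slope 1.85 ± 0.249, adjusted p = 0.018). Its main step, of 2.68, lay between webs 2 and 3. BPIFC, with 0.334, 1.14, 3.28 and 8.05 CPM, climbed by similar steps (slope 1.51), and P2RY6, a receptor for the nucleotide UDP, was low in webs 1 and 2 and high in webs 3 and 4, with 0.518, 0.628, 4.25 and 6.29 CPM (slope 1.36). More abundant genes rose as steadily. OTOR, a small secreted protein of cartilage and the inner ear, stood at 122, 174, 507 and 996 CPM (slope 1.06 ± 0.0824, adjusted p = 0.0070), the carboxypeptidase CPA6 at 19.6, 51.1, 99.4 and 144 CPM (slope 0.96), and the adhesion molecule CNTN5 at 10.2, 13.8, 38.3 and 70.5 CPM (slope 0.98). HOXD10 was the other member of this group. Without web 1 the adjusted p of P2RY6 was 0.060, and with limma on log2(TPM + 1) it was 0.059 for P2RY6 and 0.061 for SP9.

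The steepest falling genes were highest in web 1 and lowest in web 4. All but ZBTB7C and LMO3 made their largest drop by web 3. IBSP (ENSPSIG00000006462), bone sialoprotein of mineralising tissue, stood at 9.42, 1.05, 0.292 and 0.147 CPM and was already low in web 2 (slope -2.14 ± 0.237, adjusted p = 0.012). FADS6, a fatty acid desaturase, stood at 12.8, 4.17, 0.365 and 0.293 CPM (slope -2.01), and MSLN (mesothelin, a protein of the cell surface) at 55.9, 19.4, 2.1 and 1.93 CPM (slope -1.77 ± 0.206, adjusted p = 0.012). In both the step from web 2 to 3, of -3.40 and -3.19, was the largest. ANKRD35 stood at 23.6, 8.92, 2.08 and 1.80 CPM (slope -1.32). ZBTB7C, a zinc finger factor, and LMO3, a LIM-only cofactor, fell on through web 4, with 10.5, 6.44, 2.19 and 0.697 CPM and 9.42, 4.77, 2.59 and 0.605 CPM (slopes -1.32 and -1.23). SLC8A1, a sodium-calcium exchanger, stood at 6.55, 3.95, 0.948 and 0.715 CPM (slope -1.16), the least steep of the 8. LHX9, described above, was the other member of this group (slope -1.33). The steepest falling gene of all, ENSPSIG00000000349, has no symbol and was chosen after its values were seen: it stood at 187, 49.7, 2.97 and 0.770 CPM (slope -2.81 ± 0.202, adjusted p = 0.0068). Among these, 5 calls ended without web 1, those of IBSP (slope -1.43, adjusted p = 0.32), SLC8A1 (0.11), FADS6 (0.057), ANKRD35 (0.053) and LMO3 (0.053). With limma on log2(TPM + 1) those of IBSP (0.083), SLC8A1 (0.058) and FADS6 (0.050) ended.

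Some genes of connective tissue rose. KERA and LUM, proteoglycans that bind collagen fibrils, stood at 76.6, 116, 194 and 252 CPM and at 422, 536, 984 and 1240.3 CPM, with slopes of 0.59 ± 0.0512 and 0.55 ± 0.0592 (adjusted p = 0.0083 and 0.010). DPT, a matrix protein that binds the proteoglycan decorin, stood at 24.3, 37.8, 59.1 and 58.6 CPM (slope 0.45, adjusted p = 0.044), and COL14A1, a collagen on the surface of fibrils, at 400.0, 425, 602 and 685 CPM (slope 0.28, adjusted p = 0.042). TWIST2, a factor of fibroblast precursors, rose from 142 through 237 and 355 to 365 CPM (slope 0.47 ± 0.0773, adjusted p = 0.032). Of 9 tested limb mesenchyme factors TWIST2 alone rose and LHX9 alone fell, beside 0.736% and 1.39% of all genes. TWIST2 had the only positive slope of the 9, and the other 8 slopes were negative, beside 7269 of all 14544 genes. Of 14 tested tendon and fibroblast genes 3 rose, none fell and 11 did not pass. Among the latter were DCN, at 1154 to 1560.5 CPM, and the tendon factor MKX, which was lowest in web 4 at 55.8, 67.2, 42.9 and 15.4 CPM. Without web 1 the adjusted p was 0.18 for DPT and 0.11 for TWIST2, whose slope was then 0.31. Without web 2 it was 0.068 for DPT and 0.12 for COL14A1, without web 4 it was 0.053 for COL14A1, and with libraries scaled by size alone it was 0.059 for DPT and 0.052 for COL14A1. With limma on log2(TPM + 1) the calls of DPT (0.11), COL14A1 (0.081) and TWIST2 (0.083) ended.

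Most collagens were higher in web 2 than in web 1 and lower in web 4 than in web 3. COL1A1 stood at 1134, 1384, 1102 and 742 CPM and COL3A1 at 2377, 3318, 3537 and 2163 CPM, highest in webs 2 or 3 and lowest in web 4. Of 16 tested collagens 15 were higher in web 2 than in web 1 and 15 were lower in web 4 than in web 3, while 7268 of all 14544 genes were higher at the first of these steps and 7070 lower at the last. Their summed level was 9039, 11311, 11244 and 8116 CPM. Of 16 cartilage genes 1 fell (1.39% of all genes did). At the middle step 7 were more than 2-fold lower in web 3 than in web 2, against 6.54% of all genes at that step. Of the 16 cartilage genes 13 were higher in web 2 than in web 1, and 9 higher in web 4 than in web 3. Over all 14544 genes 7268 and 7442 were higher at these steps. The cartilage genes summed to 360, 421, 353 and 363 CPM. RUNX3, a factor of cartilage and bone maturation, fell with 35.7, 35.5, 8.5 and 5.02 CPM, again at the middle step (slope -1.08 ± 0.175, adjusted p = 0.031; 0.068 without web 4 and 0.060 with limma on log2(TPM + 1)). Of 10 joint genes 1 rose (0.736% of all genes did). ERG, a factor of joint cartilage and of endothelium, stood at 30.6, 36.2, 64.0 and 65.8 CPM (slope 0.42, adjusted p = 0.042). It lost its call without web 1 (adjusted p = 0.092), without web 2 (0.070), with scaling by library size (0.054) and with limma on log2(TPM + 1) (0.13). None of 15 matrix protease genes passed, with MMP2 at 3189.5, 4637, 5116 and 4721 CPM.

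The DLX factors of the apical ridge and limb ectoderm fell, in contrast to SP9. DLX6 stood at 53.3, 39.6, 17.6 and 14.2 CPM (slope -0.69 ± 0.0816, adjusted p = 0.012) and DLX5, its neighbour in the genome of other vertebrates, at 266, 201, 107 and 101 CPM (slope -0.50 ± 0.0695, adjusted p = 0.019). DLX2, at 42.5, 32.3, 17.2 and 14.3 CPM, and DLX3, at 96.4, 58.4, 35.1 and 37.0 CPM, fell too (slopes -0.56 and -0.48). In all 4 the middle step was the largest. Of the 13 tested genes of the ridge list 1 rose, 4 fell and 8 did not pass, beside 0.736% of all genes rising and 1.39% falling. Among the 8 was WNT7A, a dorsal ectoderm signal, at 32.2, 25.7, 40.3 and 51.2 CPM. Of 15 tested epidermis genes 5 also fell and 10 did not pass. The epidermis list had a summed level of 5635, 3113, 1920 and 2047 CPM, and its part in the result was not tested.

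The summed RNA of markers of several other cell types differed between the webs, and in bulk tissue fewer cells of a type and less RNA per cell cannot be told apart. Among the epidermis genes, whose sum was highest in web 1, KRT15, a keratin of basal epidermis, fell from 2320.1 through 1236 and 485 to 402 CPM (slope -0.88 ± 0.0859, adjusted p = 0.0092). KRT75 stood at 717, 254, 108 and 117 CPM, the desmosome protein DSP at 853, 425, 264 and 254 CPM, and the grainyhead factors GRHL1 and GRHL3 at 106, 60.4, 36.4 and 37.1 CPM and at 58.4, 32.7, 14.7 and 14.6 CPM. These 5 fell, with slopes of -0.52 to -0.90, and the other 10 did not pass. Those 10 hold the factor TP63, at 17.4, 17.4, 21.3 and 22.8 CPM, the adhesion molecule EPCAM, at 531, 342, 306 and 391 CPM, and KRT18, at 136, 115, 125 and 173 CPM. Over the whole list 11 of 15 slopes were negative and 4 positive, beside 7269 negative slopes among all 14544 genes. From web 1 to 2, 13 of the 15 were lower, beside 7271 of all genes. KRT19 had 0 counts in every forelimb web. Without web 1 the adjusted p was 0.057 for DSP, whose slope was then -0.37, and 0.063 for GRHL3. The part of epidermis in the 202 falling genes was not tested.

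Macrophage and leukocyte genes were highest in web 1 as well. The 10 tested members summed to 226, 155, 89.6 and 110 CPM. All 10 were lower in web 2 than in web 1 and lower in web 3 than in web 2. Of all 14544 genes 7271 and 7393 were lower at these steps. From web 3 to 4, 9 of the 10 were higher, beside 7442 of all genes. CSF1R, the receptor macrophages need to survive, stood at 68.3, 47.2, 25.3 and 27.4 CPM and fell (slope -0.48 ± 0.0855, adjusted p = 0.041), as did the complement gene C1QB, at 19.2, 13, 9.98 and 8.25 CPM (adjusted p = 0.048). The other 8 did not pass (1.39% of all genes fell), and PTPRC, the common leukocyte marker, stood at 8.10, 6.52, 2.15 and 3.43 CPM. The call of CSF1R ended without web 1 (adjusted p = 0.15) and with limma on log2(TPM + 1) (0.064), and that of C1QB when any one web but web 4 was left out (0.063 to 0.29) and in the fit over all 8 libraries (0.073). In the lysosome list, whose genes macrophages also express, 15 of 16 slopes were negative, beside 7269 of 14544 over all genes. CTSK alone fell past the threshold (108, 97.1, 70.4 and 52.9 CPM, slope -0.35 ± 0.0529, adjusted p = 0.023). In the pro-apoptotic list BMF fell, at 148, 122, 74.0 and 66.8 CPM (slope -0.42 ± 0.0582, adjusted p = 0.020), and the other 15 did not pass. None of 8 anti-apoptotic genes passed, with API5 at 284 to 325 CPM.

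Skeletal muscle genes were lowest in web 3 and returned in web 4. The 18 tested members summed to 685, 377, 196 and 604 CPM, and none passed as a slope. ACTC1, an actin of developing muscle, stood at 229, 129, 63.6 and 214 CPM, MYL1 at 43.5, 16.4, 8.70 and 35.5 CPM and MYOG at 3.97, 1.52, 0.748 and 3.04 CPM. From web 3 to web 4, 16 of 18 were more than 2-fold higher, beside 4.82% of all genes. From web 1 to 2, 7 of 18 were more than 2-fold lower (background 4.1%), and from web 2 to 3, 9 of 18 (6.54%). The exceptions at the last step, PAX3 and PAX7, are precursor factors, and PAX3 was highest in web 3, at 6.86, 10.9, 15.1 and 9.72 CPM. Red blood cell genes alternated instead. The 4 tested members were all higher in web 2 than in web 1, lower in web 3 and higher again in web 4. Of all 14544 genes 7268, 7393 and 7442 changed in that direction at the successive steps. The embryonic globin HBZ stood at 1426, 1856, 1237 and 2258 CPM. Of 14 endothelial genes 13 had a negative slope, beside 7269 of all 14544 genes, and ERG alone passed, in the opposite direction. PECAM1 stood at 12.7, 14.3, 9.99 and 5.56 CPM and CDH5 at 44.9, 58.0, 46.0 and 27.9 CPM, both lowest in web 4.

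Of 12 pigment cell genes 2 fell (1.39% of all genes did). EDNRB stood at 37.2, 29.4, 21.9 and 16.9 CPM (slope -0.38 ± 0.0565, adjusted p = 0.022) and RAB38 at 15.9, 9.97, 8.41 and 5.35 CPM (slope -0.49 ± 0.0861, adjusted p = 0.038). The melanin enzyme TYRP1 stayed at 38.5 to 42.3 CPM and the pigment cell factor MITF at 6.86 to 8.28 CPM. Over the pigment list 11 of 12 slopes were negative, beside 7269 of all 14544 genes, and the sum was 200, 197, 168 and 147 CPM. None of 13 nerve and Schwann cell genes passed, though 11 of the 13 slopes were negative. SOX10, a factor of Schwann and pigment cells, stood at 17.7, 16.8, 12.1 and 9.31 CPM. All 22 cell cycle genes had a positive slope and none passed; all 22 were higher in web 3 than in web 2, where 7138 of 14544 genes were, and PCNA stood at 384, 385, 456 and 469.8 CPM. Of 18 immediate early and stress genes 2 fell, again beside 1.39% of all genes. FOSL2 stood at 46.9, 32.9, 20.5 and 16.6 CPM (slope -0.52 ± 0.0603, adjusted p = 0.012) and JUNB at 34.1, 25.2, 18.9 and 17 CPM (adjusted p = 0.042). None of 16 glycolysis genes passed, with GAPDH at 1521, 1693, 1862 and 2169.6 CPM. Without web 1 the adjusted p was 0.059 for EDNRB, 0.23 for RAB38 and 0.19 for JUNB; RAB38 also lost its call without web 2 (0.057) and web 4 (0.078), and JUNB without web 2 (0.074) and web 3 (0.058). With limma on log2(TPM + 1) the calls of EDNRB (0.10), RAB38 (0.060), FOSL2 (0.058) and JUNB (0.052) ended.

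**Figure D4:**
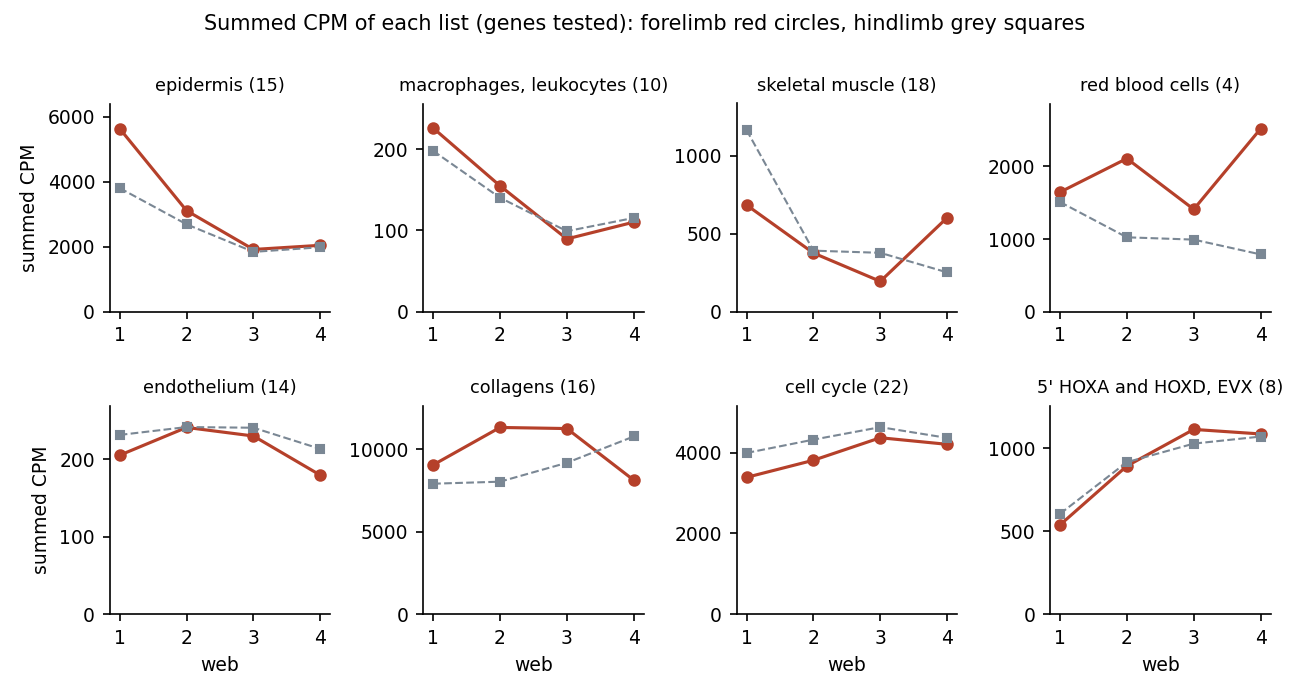
Summed CPM of the tested members of 8 gene lists by web, forelimb as red circles and hindlimb as grey squares, with the number of genes in each title and axes starting at 0. In the forelimb, epidermis runs from 5635 to 2047 CPM and macrophages and leukocytes from 226 to 110 CPM, muscle dips to 196 CPM in web 3, collagens peak at 11311 CPM in web 2, and the 5′ HOX list runs from 537 to 1086 CPM.

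Some genes changed at a single border between webs and were level on both sides of it. Such genes were taken as those with a step past 2-fold, less than 1.5-fold at each of the other 2 steps, and at least 5 CPM in some web. At the border of webs 1 and 2 there were 17 higher and 20 lower in web 2, at that of webs 2 and 3 there were 8 higher and 52 lower in web 3, and at that of webs 3 and 4 there were 16 higher and 30 lower in web 4. The border at digit III, between webs 2 and 3, thus held the most genes that were lower beyond it. Among them, SEZ6L, a membrane protein of neurons, stood at 10.1, 6.95, 0.511 and 0.660 CPM, the sodium-proton exchanger SLC9A2 at 19.9, 16.6, 3.06 and 3.06 CPM, and STYK1, a kinase-like membrane protein, at 7.46, 6.46, 1.53 and 2.27 CPM. Higher beyond the same border were P2RY6, the sulfotransferase CHST1 (2.54, 2.71, 6.02 and 6.33 CPM), the glycine receptor subunit GLRB (3.79, 3.05, 6.67 and 7.57 CPM) and F7 (2.81, 2.29, 4.96 and 6.4 CPM). At the border of webs 3 and 4, CXCL12, a chemokine, stood at 7.5, 9.69, 8.94 and 2.37 CPM and SYT1, a vesicle protein, at 20.1, 23.6, 16 and 5.17 CPM, while HMGA2, a chromatin protein of embryonic cells, stood at 1.25, 1.30, 1.59 and 8.42 CPM and RGS22 at 3.59, 3.32, 4.47 and 12.1 CPM. The other genes named there are MCF2, PARD6B and TNNT1.

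Each such step rests on 1 library, and the hindlimb gives the same step in libraries that the choice did not use. Of the 52 genes lower at the border of webs 2 and 3, 47 had a step of the same sign in the hindlimb and 15 were past 2-fold there. Their median step was -0.73 against -1.24 in the forelimb. Over all genes 49.9% were lower at that hindlimb step and 4.20% past 2-fold lower. Among genes with at least 5 CPM in some forelimb web, as border genes had to have, the latter share was 1.08%. All 8 genes higher at that border were higher in the hindlimb too, 3 past 2-fold (2.83% of all genes and 0.350% of those with at least 5 CPM). Of the 17 and 20 genes at the border of webs 1 and 2, 13 and 14 had the same sign. Past 2-fold were 2 and 3 of them. Over all genes 49.0% and 51.0% had these signs, and 2.30% and 4.31% were past 2-fold. Of the 16 and 30 at the border of webs 3 and 4, 11 and 26 had the same sign. Past 2-fold were 1 and 5 of them. Over all genes 50.2% and 49.7% had these signs, and 2.65% and 4.26% were past 2-fold. Among genes with at least 5 CPM the shares past 2-fold were 0.294% and 0.865% at the first border and 0.359% and 0.745% at the last. CXCL12 had the same drop in the hindlimb, at 8.62, 11.3, 9.25 and 2.77 CPM. CDK19, a kinase of the Mediator complex, did not: it stood at 24.3 CPM in forelimb web 1 and 63.0 to 77.5 CPM in webs 2 to 4, against 64.4 to 70.3 CPM in all 4 hindlimb webs. ARL6IP4, at 57.6, 64.1, 68.4 and 22.0 CPM, was low in forelimb web 4 and stood at 62.1 to 64.5 CPM in the hindlimb. HOXD12, described above, was also a gene of the first border, and its log2 step there was 1.54 in the forelimb and 1.33 in the hindlimb. MCTP2, POU2F1, ATP10B, TMA16, UNC13D and CADPS2 were the others named at the first border, with forelimb web 1 alone apart. Among genes reaching 5 CPM in some forelimb web, none was at least 2-fold higher in both middle webs than in both outer ones. In the same set 4 were at least 2-fold lower, of which MYL1 and the muscle factor MYF5 (5.48, 1.75, 1.88 and 3.85 CPM) have a symbol. None of the 4 had that pattern in the hindlimb.

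Most forelimb gradients were found again in the hindlimb webs of the same animals. All 107 rising genes and 201 of the 202 falling genes had a slope of the same sign there, against 49.8% and 50.2% of all genes with a slope of that sign. The hindlimb test covered the 14226 genes that were tested in the forelimb and also had enough counts in the hindlimb. It called 487 rising (3.42%) and 597 falling (4.2%). These included 96 of the 107 (89.7%) and 155 of the 202 (76.7%), none in the opposite direction. The 251 shared genes were 23.2% of those called in the hindlimb. Median hindlimb slopes of the forelimb genes were 0.42 and -0.43, smaller in size than the forelimb medians on which the genes were chosen. HAND2 had 15.3, 40.9, 84.7 and 109.6 CPM in hindlimb webs 1 to 4 and a slope of 0.95 ± 0.0924 (adjusted p = 0.00042), SLIT2 had 53.5, 54.7, 104 and 142 CPM, nearly its forelimb values, and LHX9 had 172, 53, 21.6 and 21.1 CPM. HOXD11 passed there with 0.351, 5.15, 29.0 and 32.8 CPM (slope 1.97 ± 0.315, adjusted p = 0.0048).

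**Figure D5:**
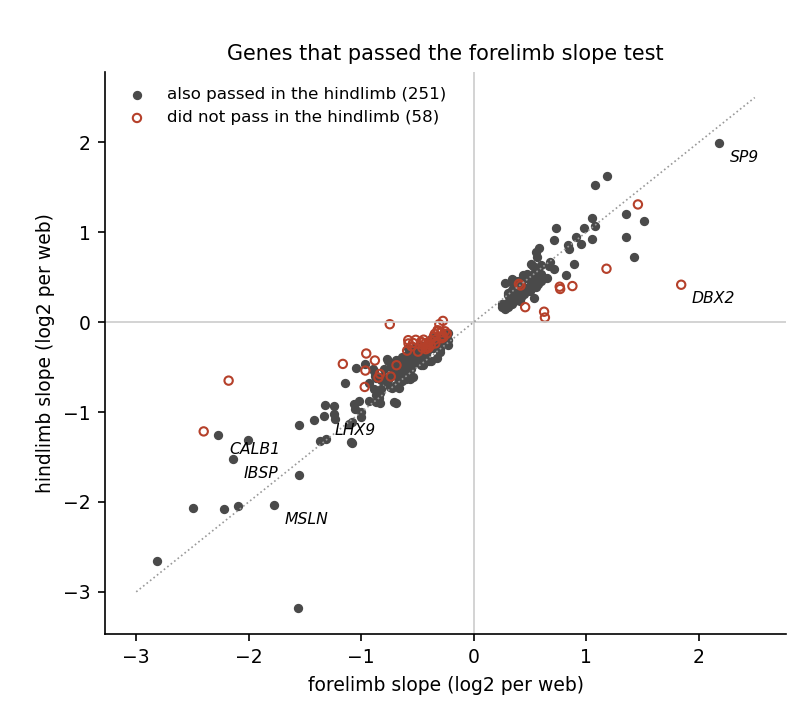
Forelimb slope (x axis) against hindlimb slope (y axis), both in log2 units per web, for the 309 genes that passed in the forelimb; filled points are the 251 that also passed in the hindlimb, open points the 58 that did not, and the dotted line marks equal slopes. Nearly every point lies in the 2 quadrants of equal sign, and DBX2, at 1.85 and 0.42, lies far below the line.

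No gene was shown to differ in slope between the limbs. The test of the difference, over all 8 libraries and 14999 genes, called 0 (0%), with 581 at an unadjusted p under 0.05 and a lowest adjusted p of 0.998. DESeq2 called 2, and treating each web number as a block gave 1. A difference that does not pass leaves the slopes undecided rather than equal, with only 4 residual degrees of freedom. Among the 309 forelimb genes 47 had an unadjusted p under 0.05. They were chosen by their forelimb slope, which is part of the difference, so this count is not a separate result. The same holds for DBX2, chosen as one of the steepest rising genes. DBX2 stood at 0.738, 1.87, 2.33 and 1.89 CPM in the hindlimb and its slope was lower there by 1.43 ± 0.359 (unadjusted p = 0.0027). By lowest p the genes were SYT14, PNKD and TNNT1. SYT14 stood at 2.1, 2.77, 2.85 and 4.36 CPM in the forelimb and at 3.65, 2.97, 1.80 and 1.34 CPM in the hindlimb (difference -0.83 ± 0.180), and PNKD ran the opposite way, at 6.16, 5.53, 3.76 and 2.93 CPM and at 3.43, 4.55, 4.76 and 6.16 CPM. TNNT1, a troponin of slow muscle, stood at 11.5, 11.6, 8.28 and 20.1 CPM in the forelimb and at 45.7, 12.3, 13.1 and 7.63 CPM in the hindlimb (difference -1.01 ± 0.225), and DESeq2 called it. Muscle genes ran in opposite directions at the last step: 16 of 18 were higher in forelimb web 4 than in web 3, and 16 of 18 were lower in the hindlimb. Of the collagens 15 of 16 were lower in forelimb web 4 and 12 of 16 higher in hindlimb web 4. The 4 red blood cell genes were higher in forelimb web 4 and lower in hindlimb web 4. Over all genes 50.2% were higher and 49.7% lower at that hindlimb step. These contrasts of single libraries were not tested. The last step was not the only difference. Hindlimb muscle summed to 1166, 393, 379 and 253 CPM, already much lower in web 2 than in web 1. As a hindlimb slope 15 of the 18 muscle genes and all 4 red blood cell genes fell, beside 4.2% of all genes.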

How the data were processed

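Interdigital tissue of 8 pools was sequenced as paired-end Illumina reads from NEBNext Ultra libraries, per the labels' protocols. The authors deposited a table of raw counts per gene and a table of TPM with gene symbols, and the submitters' processing notes name HISAT2 2.2.1 and StringTie 2.1.7. Which genome build was used is not given in the sources used here. Of 10188 counts from 1 to 40 in the forelimb columns, 34.9% were multiples of 4, where an even spread gives 25%. Counts are therefore not read as single molecules, and intervals from counting are left out. The deposited TPM values keep no depth.

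Groups are web positions, 1 pool each. Tests used edgeR 4.0.16 in R 4.3.3 on genes that passed filterByExpr with the design (minimum count 10, minimum total 15). Counts were scaled by TMM within each limb, with forelimb factors of 0.971 to 1.02, and CPM values carry that scaling. Slopes on web number came from the quasi-likelihood test over the 4 forelimb libraries (2 residual degrees of freedom), the same over the 4 hindlimb libraries, and a limb by web product over all 8, with Benjamini-Hochberg adjustment at 0.05. Standard errors are the slope divided by the root of F. Steps and folds are differences of log2 CPM with a prior count of 2. The tests were tried on simulated counts. Gene lists were matched by symbol, and 21 tested genes share a symbol with another gene.

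The members and lists were chosen with earlier results of these data known. Named genes were a set of limb genes, the 8 steepest rising and falling genes with a symbol and a mean of at least 2 CPM, from each list at most 3 genes past the threshold (its most abundant gene if none passed), up to 4 genes per border and direction, and the 3 with the lowest p for the slope difference; other list members are named to show a list's range and were chosen after their values were seen. Alternatives were other scalings, no filter, DESeq2 1.42.0, limma 3.58.1 on log2(TPM + 1), a fit over all 8 libraries and leaving out each web. HOXD8, HOXD9, HOXA9, HOXA13, TBX3, GLI1, KRT5 and KRT14 are not named in the symbol column and were not analysed here. Some genes that the rule names are not reported here.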

Additional observations from a re-analysis of the deposited data

How the results depend on the processing

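The 309 called genes kept their sign in every alternative. RLE scaling called 108 rising and 209 falling genes and no filter 110 and 213, each with all 309 among them; scaling by library size alone called 88 and 220 with 289 of the 309. DESeq2 called 278 and 566, limma on log2(TPM + 1) 37 and 103, and the fit over all 8 libraries 213 and 407, and these still called 307, 130 and 302 of the 309. Leaving out 1 web gave 78 to 232 rising and 158 to 473 falling genes with 1 residual degree of freedom. Among genes that did not pass, leaving out 1 web moved the slope of GREM1 between -0.021 and 0.36, ALDH1A2 between -0.37 and 0.26, BMP2 between -0.36 and 0.028 and TBX5 between -0.082 and 0.075. The alternatives were followed gene by gene for 70 named genes. Some of these, such as HOXD11, MSX1 and TBX5, had no call to lose. With limma on TPM 22 of the called ones lost their call, each named beside its result. Other called genes, such as DKK3, SLIT2, DLX3, KRT75, GRHL1 and HEY1, were not followed singly and enter only the totals above. The slope difference called 1 gene with web number as a replicate block (ND4L, at 90.6, 77.6, 51.0 and 0.0367 CPM in forelimb webs 1 to 4, which overlaps ND4, so reads may be split), 2 with DESeq2 and 0 to 2 without 1 library. Steps past 2-fold, higher and lower, numbered 980 and 1076, 723 and 1572, and 1253 and 1079 with no filter at the successive borders, and 70 and 146, 51 and 238, and 120 and 131 on log2(TPM + 1), where the last border turned to more genes lower than higher. Among genes with at least 5 CPM they were 51 and 102, 35 and 200, and 109 and 84. A 3-fold limit left 2 and 0, 1 and 10, and 1 and 5 border genes. The causes of these changes were not tested. With 1 pool per web, 1 unusual library cannot be told apart from a real border.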

Other observations

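The genes given here stand outside the lists and were chosen after their values were seen, because they passed the test, so they say nothing of any group of genes. They were not followed singly in the alternative fits. In the epidermis list 10 of 15 members did not pass. PPL and PKP1, which encode cell junction proteins, stood at 277, 152, 94.7 and 81.4 CPM and at 193, 104, 54.3 and 48.3 CPM in forelimb webs 1 to 4 (slopes -0.60 ± 0.0668 and -0.69 ± 0.0774, edgeR adjusted p = 0.012 each). LAMB3, a laminin chain of the epidermal basement membrane, stood at 30.5, 15.1, 9.78 and 5.15 CPM, and ZNF750, a factor of epidermal differentiation, at 122, 63.2, 28.9 and 22.7 CPM (adjusted p = 0.0083 each). All 4 were highest in web 1 and lowest in web 4.

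Other single genes, chosen in the same way, rose or fell. HAS2, which makes hyaluronan, stood at 43.8, 52.1, 80.0 and 95.1 CPM (slope 0.40 ± 0.0544, adjusted p = 0.019), and the integrin ITGA8 at 87.4, 119, 141 and 183 CPM (slope 0.35 ± 0.0451, adjusted p = 0.017). PDGFC, a growth factor, stood at 91.3, 97.4, 149 and 257 CPM (slope 0.51 ± 0.0700, adjusted p = 0.019). HEY1 and HEY2, related targets of Notch signals, ran in opposite directions: HEY1 fell, at 146, 89.1, 43.7 and 51.3 CPM (slope -0.54 ± 0.100, adjusted p = 0.045), and HEY2 rose, at 28.1, 37.0, 62.4 and 88.8 CPM (slope 0.57 ± 0.0546, adjusted p = 0.0087).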
